A study of Mus musculus with 11 samples.

Results

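Prostanoids are lipid mediators made from arachidonic acid, and 10 mouse genes of their synthesis, breakdown and reception were followed here in airway RNA-seq. The genes were taken by symbol from the cyclooxygenases, the terminal synthases, the degrading enzyme and the PGE2 receptors, and all 10 were found among the 21899 genes listed. All 10 also reached the minimum mean of 0.5 FPKM (fragments scaled to exon length and to the total of the library) and were tested with 14004 genes in all. The groups were PBS (3 libraries), OVA/LPS/Vehicle (4) and OVA/LPS/GGsTop (4), from wild-type mice, which the study's methods give as male BALB/c animals bought as young adults. PBS mice were not sensitised and received PBS. OVA/LPS/Vehicle mice were sensitised to ovalbumin with alum, challenged with ovalbumin through the nose and then exposed to LPS through the nose, which models an exacerbation of asthma, and received vehicle in the trachea. OVA/LPS/GGsTop mice were treated in the same way but received GGsTop, an inhibitor of γ-glutamyl transpeptidase, in place of vehicle. A group with GGsTop and no ovalbumin or LPS was not among the libraries, so that GGsTop was read here only in diseased airways. The labels name the trachea, whereas the study's methods describe larger airways dissected from the lung with the trachea left out.

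The cyclooxygenases COX-1 (Ptgs1) and COX-2 (Ptgs2) turn arachidonic acid into the unstable intermediate prostaglandin H2, COX-1 constitutively in many cells and COX-2 mostly after stimulation. Terminal synthases then make PGE2, prostacyclin, PGD2 or thromboxane A2 from it, and 15-hydroxyprostaglandin dehydrogenase (Hpgd) inactivates PGE2, mainly in the lung. In the airway PGE2 and prostacyclin relax smooth muscle and restrain inflammation, whereas PGD2 and thromboxane A2 constrict it.

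The promoters of the cyclooxygenase genes and of a pair of synthase genes are shown because these genes differed between OVA/LPS/Vehicle and PBS as deposited. Ptgs2 and Hpgds went upwards and Ptgs1 and Ptges downwards, and none of these differences passed the test after the GC correction described below. The promoters are RefSeq sequences on GRCm38.p6 from 250 bases before to 50 bases after the gene start. They are read along the strand of the gene, and capitals mark the motifs searched. A promoter was matched for 9 of the 10 genes. Ptgis was not among them.
Ptgs2 (chr1:150099781-150100080, plus strand): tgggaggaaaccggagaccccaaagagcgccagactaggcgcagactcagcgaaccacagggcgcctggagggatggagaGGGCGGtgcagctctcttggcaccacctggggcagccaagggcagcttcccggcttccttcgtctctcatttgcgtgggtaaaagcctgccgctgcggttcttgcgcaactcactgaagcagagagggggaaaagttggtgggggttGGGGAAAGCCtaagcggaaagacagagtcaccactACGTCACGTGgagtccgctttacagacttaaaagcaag
Hpgds (chr6:65144681-65144980, minus strand): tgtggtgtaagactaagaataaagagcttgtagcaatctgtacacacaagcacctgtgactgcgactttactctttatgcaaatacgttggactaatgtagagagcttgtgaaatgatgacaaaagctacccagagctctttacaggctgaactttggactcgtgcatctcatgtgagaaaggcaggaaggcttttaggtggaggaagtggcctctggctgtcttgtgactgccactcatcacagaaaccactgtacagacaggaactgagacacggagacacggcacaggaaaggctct
Ptgs1 (chr2:36230176-36230475, plus strand): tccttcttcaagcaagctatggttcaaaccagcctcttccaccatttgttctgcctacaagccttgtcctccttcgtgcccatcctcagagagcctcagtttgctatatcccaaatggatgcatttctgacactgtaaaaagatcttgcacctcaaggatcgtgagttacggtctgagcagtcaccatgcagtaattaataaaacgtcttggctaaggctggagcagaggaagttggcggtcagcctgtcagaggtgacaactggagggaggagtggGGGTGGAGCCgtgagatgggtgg
Ptges (chr2:30903248-30903547, minus strand): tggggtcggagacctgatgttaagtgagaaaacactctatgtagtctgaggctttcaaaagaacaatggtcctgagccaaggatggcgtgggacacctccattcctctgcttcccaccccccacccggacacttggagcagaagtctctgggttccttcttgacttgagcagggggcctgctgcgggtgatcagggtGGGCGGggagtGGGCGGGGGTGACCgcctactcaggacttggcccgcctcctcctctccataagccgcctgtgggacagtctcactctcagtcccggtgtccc

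Motifs were searched on both strands. TATAAA was taken as the TATA box and CCAAT as the box of that name. GGGCGG stood for the GC box and CACGTG for the E-box. TGACGT stood for the core of the cAMP response element, TGANTCA for the AP-1 site, and a loose form of the NFkB site was searched too. The Ptgs2 promoter held a GC box and an NFkB match before the start. After the start it held an E-box and a cAMP response element core on the minus strand that overlaps the E-box. Of all 32851 promoters in the table, 35.7% held a GC box, 50.8% an NFkB match, 7.15% an E-box and 7.51% a cAMP response element core. The Ptges promoter held 2 GC boxes, the second overlapping an NFkB match. The Ptgs1 promoter held 1 NFkB match after the start, and no motif letters were found in the Hpgds window. CG pairs numbered 16 in the Ptgs2 promoter, 10 in Ptges, 6 in Ptgs1 and 5 in Hpgds, and the GC content was 59.3%, 60.0%, 50.7% and 46.7%. The median GC content over all promoters was 52.7%. Among the other promoters, TATAAA was present in Tbxas1 and, after the start, in Hpgd (13.6% of all promoters). CCAAT was present in Ptger2 and Ptger4 (37.4%) and TGANTCA in Ptgds and Tbxas1 (7.81%). GGGCGG was present in Hpgd and Ptger4, and the NFkB form in Ptgds and Ptger4. These matches describe the letters of the windows and do not show binding.

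The libraries held between 14513136 and 18632382 fragments, as implied by the steps in the FPKM. They stood apart in 3 ways that touch the genes below. Low-GC transcripts were relatively higher in the OVA/LPS/Vehicle libraries: log2 FPKM, taken as the deviation from the gene mean, changed by -0.261 to -0.19 per 10 points of GC content there and by 0.0464 to 0.108 with GGsTop, while the change was 0.0611, 0.0484 and 0.533 in PBS 1, 2 and 3. The GC slope moved with the groups, so that it and the treatment cannot be told apart, and each call is therefore given as deposited and after a GC correction in each library. The mitochondrially encoded genes took 14.5 to 19.5% of the FPKM in the OVA/LPS/Vehicle libraries, above 2.08 to 10.1% in PBS and 7.40 to 11.1% with GGsTop, with no overlap. With these genes removed and the rest set to the same total, the calls among the 10 genes were the same as below, with Ptgis at -1.08 against PBS and at 0.76 with GGsTop and Ptgs2 at 0.76 against PBS in log2 fold change. Tissue make-up also differed: the cardiac muscle marker sum was 7.87, 598 and 24.5 FPKM in PBS 1, 2 and 3, and the thyroid sum was 92.9, 176 and 315 FPKM in OVA/LPS/Vehicle 12, 34 and 56 but at most 1.68 FPKM in the other 8 libraries. Of 19 marker lists, 0 did not overlap between OVA/LPS/GGsTop and OVA/LPS/Vehicle, and 5 did not between OVA/LPS/GGsTop and PBS. For single genes these shares were 29.7% and 14.8%. Between OVA/LPS/Vehicle and PBS, 5 of the 19 lists did not overlap, where 44.1% of single genes did not. The ciliated cell sum was higher, at 153 to 202 against 53.3 to 90.6 FPKM, and the alveolar type 2 cell sum was lower, at 4950.3 to 8316 against 9693 to 15443 FPKM. The endothelial, smooth muscle and mast cell sums, given below beside Ptgis and Hpgds, were lower too. The part of these cell types in the comparison was not tested. The labels 12, 34, 56 and 78 do not say whether these libraries are pools. Nothing in the labels says that replicates are separate animals, so that the p-values measure the spread between these samples, which may be technical. In bulk tissue, fewer cells of a type and less RNA per cell cannot be told apart.

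The 10 genes spanned a wide range of levels. Hpgd was by far the most abundant, ranked 125th of the 14004 genes by mean FPKM, and it made up 53.6 to 86.3% of the summed FPKM of the 10 genes in a library. Ptgis followed at rank 1459, Ptgs1 at 4735, Ptges at 6366 and Ptgs2 at 8543. Tbxas1, Ptger4, Ptger2, Hpgds and Ptgds were low, at ranks 11858 to 13843. The recovered fragments behind a value ranged from 1 (Ptgds in PBS 1) to 9155 (Hpgd in PBS 1).

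**Figure D1:**
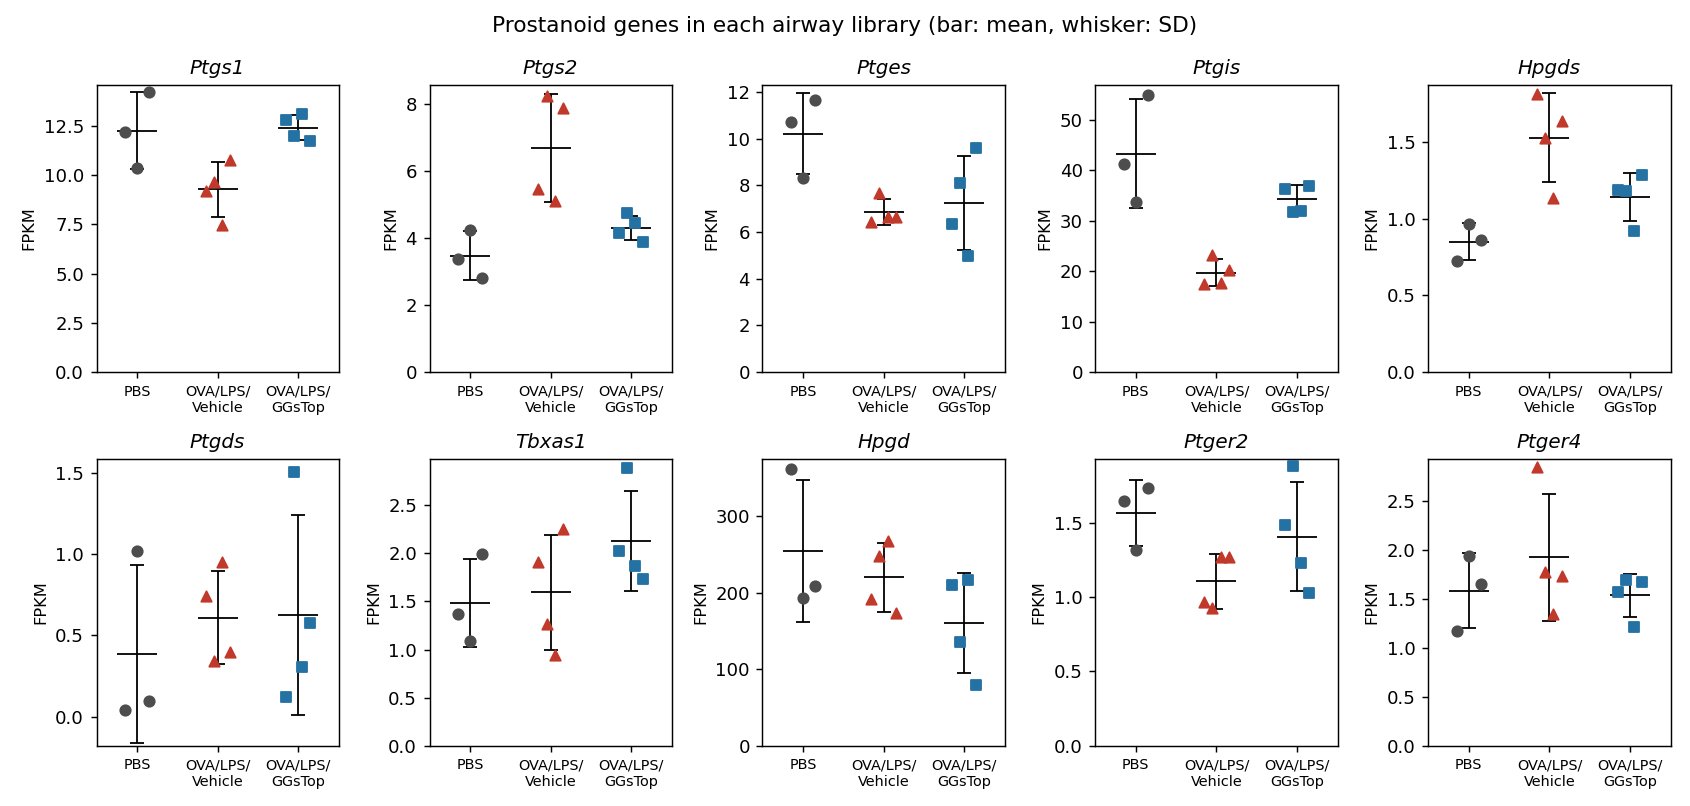
FPKM of the 10 genes (y axis, linear) in each of the 11 airway libraries, by group (x axis); points are libraries, horizontal bars are means and whiskers are SD. All 4 OVA/LPS/Vehicle libraries were at 17.4 to 23.2 FPKM for Ptgis, below the PBS and OVA/LPS/GGsTop libraries, and at 5.09 to 8.23 FPKM for Ptgs2, above them.

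Comparing the OVA/LPS/Vehicle with the PBS group asks what the whole model changed. The groups differed in alum, ovalbumin, LPS and vehicle in the trachea, whose parts cannot be told apart. Of the 10 genes, 5 were called at an adjusted p under 0.05 (limma, Benjamini-Hochberg over 14004 genes), where 38.0% of all genes tested were called. Ptgs2 and Hpgds were higher (2 of 10, against 15.9% of all genes higher), and Ptgis, Ptges and Ptgs1 were lower (3 of 10, against 22.1% of all genes lower). The groups did not overlap for 5 genes, Ptgs2, Ptges, Ptgis, Hpgds and Ptger2, where 44.1% of all genes did not overlap. The median log2 fold change of the 10 genes was -0.06, and that of all genes tested -0.01. After the GC correction 2 of the 10 were called, Ptgis and Ptger2, where 20.8% of all genes were called. With array weights, which give less weight to deviating libraries, 7 were called, Hpgd and Ptger2 beside the 5. That setting called 7916 of all 14004 genes.

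Comparing the OVA/LPS/GGsTop with the OVA/LPS/Vehicle group asks what GGsTop changed in the diseased airway. Of the 10 genes, 1 was called, Ptgis, which was higher with GGsTop, where 8.71% of all genes were called, 6.9% higher and 1.81% lower. The groups did not overlap for 3 genes, Ptgis, Ptgs1 and Ptgs2, where 29.7% of all genes did not overlap. After the GC correction none of the 10 and 0.4% of all genes were called. The median log2 fold change of the 10 genes was 0.00, and that of all genes tested 0.03.

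In the OVA/LPS/GGsTop group against the PBS group, limma called none of the 10 genes, where 2.88% of all genes (403) were called, 2.06% higher and 0.821% lower, and voom on the recovered fragments called none of them either. At limma's unadjusted p under 0.05 the count was 1 of the 10, Ptges, beside 2873 of all 14004 genes. None of the 10 and 4.24% of all genes (594) were called after the GC correction. The groups overlapped for all 10 genes, where 14.8% of all genes did not overlap. With the replicate number as a block the count over all genes was 122, in 6 libraries that without the block gave 23, and no gene of the 10 was called with or without it. Array weights called 2 of the 10 in this comparison, Ptges (adjusted p = 0.0139, limma) and Hpgd (adjusted p = 0.0315, limma). Over all 14004 genes that setting called 2557.

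**Figure D2:**
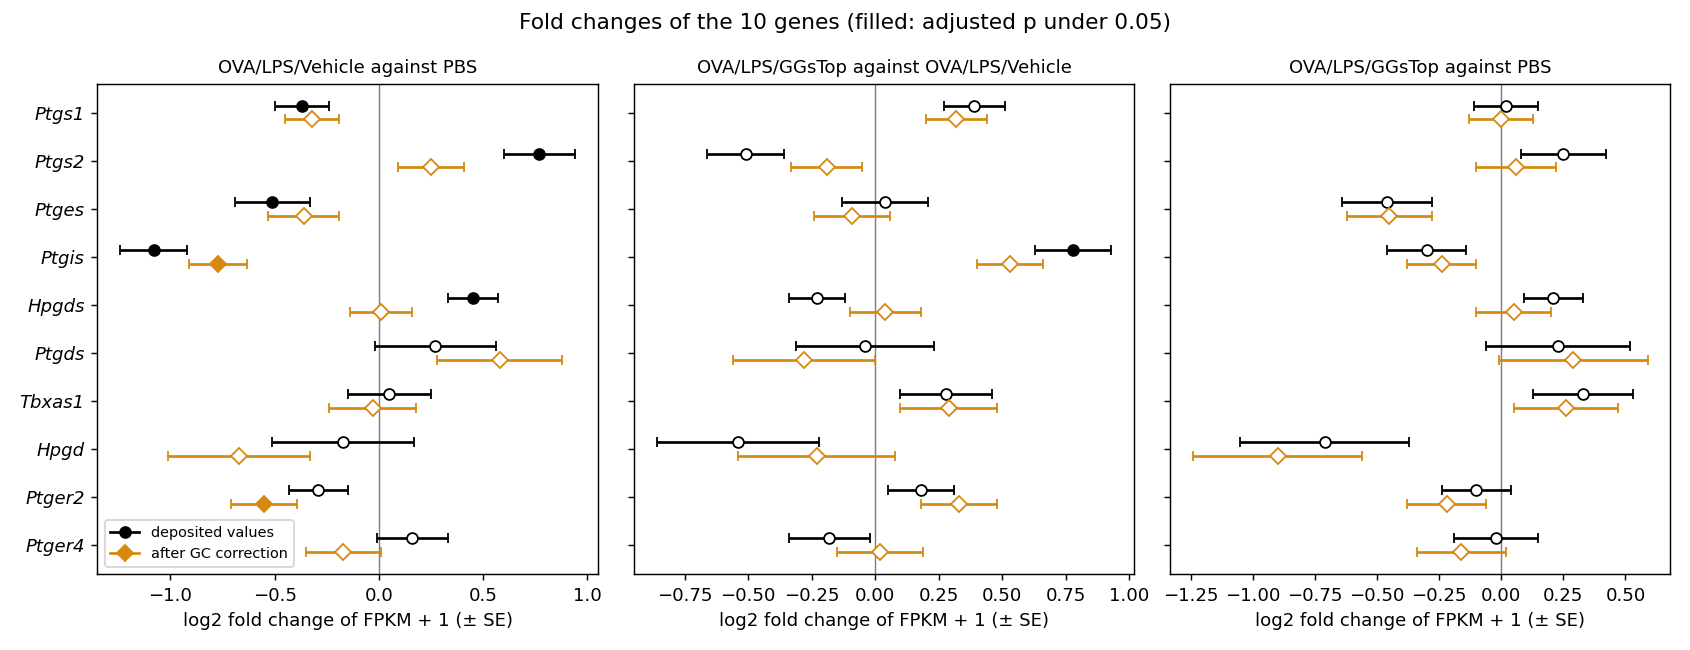
Log2 fold changes of FPKM + 1 (x axis, ± SE) of the 10 genes in the 3 comparisons, as deposited (circles) and after the GC correction (diamonds), filled where the adjusted p was under 0.05. Ptgis at -1.08 and -0.77 in the left panel was filled under both, whereas Ptgs2 moved from 0.77 to 0.25 and Hpgds from 0.45 to 0.01.

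Ptgs2 (ENSMUSG00000032487, chromosome 1), the inducible cyclooxygenase, was highest in the OVA/LPS/Vehicle group. It measured 3.38, 4.24 and 2.79 FPKM in PBS 1, 2 and 3. In OVA/LPS/Vehicle 12, 34, 56 and 78 it measured 5.46, 8.23, 5.09 and 7.87 FPKM, and in OVA/LPS/GGsTop 1 to 4 it measured 4.13, 4.72, 4.43 and 3.88 FPKM. Every OVA/LPS/Vehicle library was above every library of both other groups, which overlapped each other. Against PBS it was higher by 0.77 on the log2 scale (SE 0.17, adjusted p = 0.00735, limma). Without PBS 3, the library with the steep GC slope, it was 0.65 (adjusted p = 0.0293, limma). Its transcript had the lowest GC content of the 10, 40.0%, and after the GC correction the difference was 0.25 (SE 0.16, adjusted p = 0.251, limma).

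With GGsTop, Ptgs2 differed from vehicle by -0.51 on the log2 scale (SE 0.15, 95% interval -0.85 to -0.18), which did not pass the threshold (adjusted p = 0.057, limma). The difference was called without PBS 2 (adjusted p = 0.0422, limma) and without PBS 3 (adjusted p = 0.0287, limma), which enter only the estimate of the spread. After the GC correction it was -0.19 (adjusted p = 0.482, limma). OVA/LPS/GGsTop and PBS differed by 0.25, with a 95% interval of -0.11 to 0.62.

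Ptgs1 (ENSMUSG00000047250, chromosome 2), the constitutive cyclooxygenase, took the opposite course at a smaller size. Its level was 12.2, 10.4 and 14.2 FPKM in PBS 1, 2 and 3, 9.20, 9.64, 7.45 and 10.8 FPKM in OVA/LPS/Vehicle 12, 34, 56 and 78, and 12.8, 11.97, 13.1 and 11.7 FPKM in OVA/LPS/GGsTop 1 to 4. All OVA/LPS/GGsTop libraries were above all OVA/LPS/Vehicle libraries, but OVA/LPS/Vehicle 78 was above PBS 2. Against PBS the OVA/LPS/Vehicle group was lower, at -0.37 in log2 fold change (SE 0.13, adjusted p = 0.0435, limma). This call was lost without PBS 1, PBS 3, OVA/LPS/Vehicle 12, 34 or 56, or OVA/LPS/GGsTop 1, 2 or 3, at adjusted p (limma) of 0.0534 to 0.156. It was also lost after the GC correction, at -0.32 (SE 0.13, adjusted p = 0.107, limma). GGsTop against vehicle gave 0.39 (SE 0.12, 95% interval 0.13 to 0.66, adjusted p = 0.0597, limma), not called, and called without PBS 2 (adjusted p = 0.0417, limma) or PBS 3 (adjusted p = 0.0222, limma). Against PBS the OVA/LPS/GGsTop group differed by 0.02, with a 95% interval of -0.26 to 0.31.

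The ratio of the cyclooxygenases within a library put both courses together and is given as a description with no test. The log2 ratio of Ptgs2 to Ptgs1 (FPKM + 0.1) was -1.82, -1.27 and -2.31 in PBS 1, 2 and 3, -0.74, -0.23, -0.54 and -0.45 in OVA/LPS/Vehicle 12, 34, 56 and 78, and -1.60, -1.32, -1.54 and -1.57 in OVA/LPS/GGsTop 1 to 4. Ptgs1 exceeded Ptgs2 in every library, and by the least in the 4 OVA/LPS/Vehicle libraries, whose range did not meet that of either other group. The GC content of the transcripts, 40.0% for Ptgs2 and 51.0% for Ptgs1, differs, so that this ratio also moves with the GC slope.

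**Figure D3:**
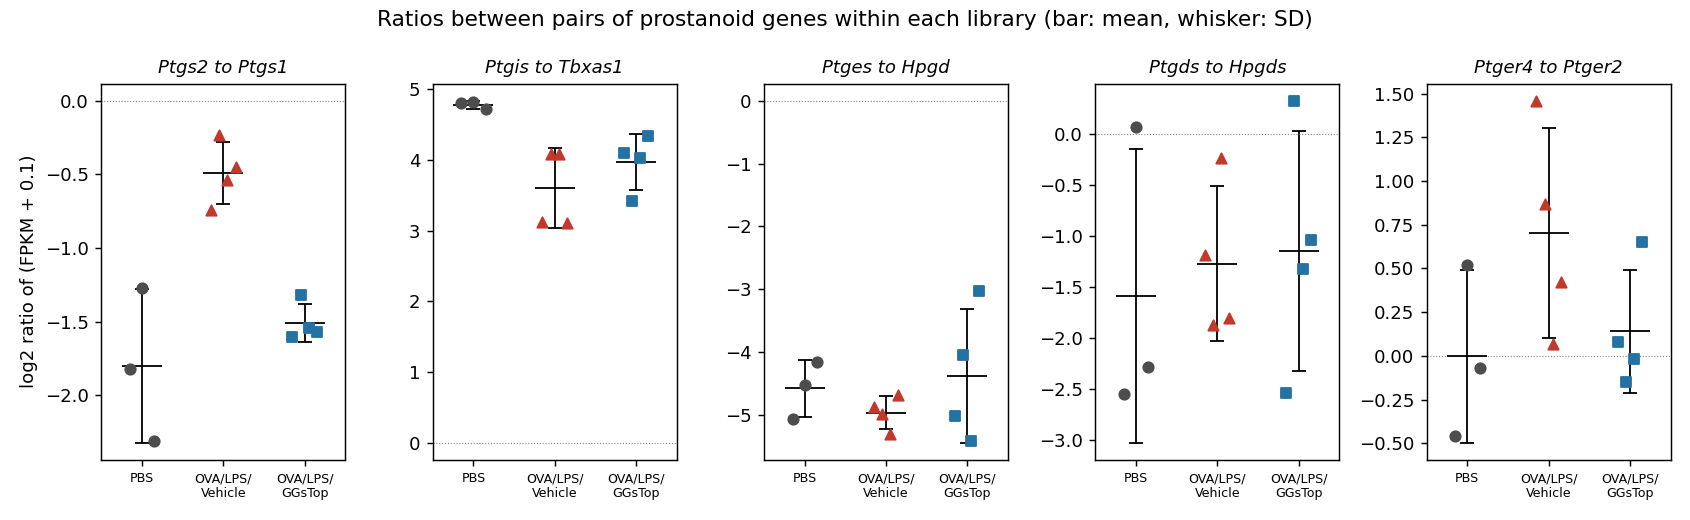
Log2 ratios of FPKM + 0.1 (y axis) between 5 pairs of genes in each library, by group (x axis); bars are means and whiskers SD. The Ptgs2 to Ptgs1 ratio of the OVA/LPS/Vehicle libraries, -0.74 to -0.23, lies above the other groups, and the Ptgis to Tbxas1 ratio of the PBS libraries, 4.72 to 4.82, lies above both disease groups.

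Ptgis (ENSMUSG00000017969, chromosome 2), prostacyclin synthase, was called in both OVA/LPS/Vehicle against PBS and GGsTop against vehicle. PBS 1, 2 and 3 had 41.2, 33.6 and 55.0 FPKM. OVA/LPS/Vehicle 12, 34, 56 and 78 had 17.4, 23.2, 17.7 and 20.2 FPKM, and OVA/LPS/GGsTop 1 to 4 had 36.3, 31.8, 32.0 and 36.9 FPKM. The OVA/LPS/Vehicle libraries were below all others, and the OVA/LPS/GGsTop libraries overlapped the PBS libraries at their lower end. The OVA/LPS/Vehicle group was lower than PBS, at -1.08 in log2 fold change (SE 0.16, adjusted p = 0.00337, limma), and at -0.90 without PBS 3 (adjusted p = 0.00571, limma). After the GC correction the difference was -0.77 and still called (SE 0.14, adjusted p = 0.0112, limma).

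With GGsTop, Ptgis was higher than with vehicle by 0.78 (SE 0.15, adjusted p = 0.0198, limma). The call was lost without OVA/LPS/Vehicle 56 (adjusted p = 0.074, limma), OVA/LPS/GGsTop 1 (adjusted p = 0.0718, limma) or OVA/LPS/GGsTop 3 (adjusted p = 0.0517, limma). It was also lost after the GC correction, at 0.53 (SE 0.13, adjusted p = 0.0774, limma), where its transcript, with 56.6% GC, was the richest in GC of the 10. Against PBS the OVA/LPS/GGsTop group differed by -0.30, with a 95% interval of -0.65 to 0.04. Prostacyclin synthase is made largely by endothelium and smooth muscle. Both marker sums were lower with vehicle than in PBS without overlap, as Ptgis was, but overlapped between vehicle and GGsTop, where Ptgis did not. The 6 endothelial markers summed to 929 to 1773 FPKM in PBS, 680.2 to 838 FPKM with vehicle and 495 to 1122 FPKM with GGsTop. The 6 smooth muscle markers summed to 594 to 782, 479 to 526 and 469 to 1148 FPKM, with no marker of either list at 0 in any group. OVA/LPS/GGsTop 4, with the lowest endothelial and the highest smooth muscle sum, had the highest Ptgis of its group. The part of these cell types in the Ptgis difference was not tested.

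Ptges (ENSMUSG00000050737, chromosome 2), the inducible microsomal PGE2 synthase, was highest in the PBS group, where Ptgs2, which it usually works with, was lowest. Its level was 10.7, 8.30 and 11.7 FPKM in PBS 1, 2 and 3 and 6.45, 7.69, 6.64 and 6.64 FPKM in OVA/LPS/Vehicle 12, 34, 56 and 78. OVA/LPS/GGsTop 1 to 4 spread more widely, at 6.37, 8.10, 4.98 and 9.61 FPKM. The PBS and OVA/LPS/Vehicle libraries did not overlap, and the OVA/LPS/GGsTop libraries overlapped both. The OVA/LPS/Vehicle group was lower than PBS, at -0.51 in log2 fold change (SE 0.18, adjusted p = 0.0454, limma). The call was lost without PBS 1, PBS 3, any 1 of the 4 OVA/LPS/Vehicle libraries, or OVA/LPS/GGsTop 1 or 2, at adjusted p (limma) of 0.0554 to 0.163, and after the GC correction, at -0.36 (adjusted p = 0.134, limma). GGsTop against vehicle gave 0.04 (95% interval -0.32 to 0.41, adjusted p = 0.888, limma). The OVA/LPS/GGsTop group differed from PBS by -0.46, with a 95% interval of -0.86 to -0.07 (adjusted p = 0.181, limma).

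Hpgds (ENSMUSG00000029919, chromosome 6), the hematopoietic PGD2 synthase of mast cells and other immune cells, was low in all libraries but higher in the OVA/LPS/Vehicle group. It had 0.723, 0.964 and 0.860 FPKM in PBS 1, 2 and 3, from 70 to 103 fragments. The levels were 1.82, 1.53, 1.13 and 1.64 FPKM in OVA/LPS/Vehicle 12, 34, 56 and 78, and 1.19, 1.18, 0.917 and 1.28 FPKM in OVA/LPS/GGsTop 1 to 4. OVA/LPS/Vehicle and PBS did not overlap, and the OVA/LPS/GGsTop libraries lay between and overlapped both. Against PBS the OVA/LPS/Vehicle group was higher by 0.45 in log2 fold change (SE 0.12, adjusted p = 0.0169, limma), a value that the added 1 FPKM makes smaller, since with 0.1 it was 0.77. The call was lost without PBS 1 (adjusted p = 0.0536, limma). Its transcript was poor in GC, at 41.7%, and after the GC correction nothing of the difference remained, at 0.01 (SE 0.15, adjusted p = 0.979, limma).

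GGsTop against vehicle gave -0.23 for Hpgds, with a 95% interval of -0.48 to 0.01 (adjusted p = 0.183, limma). The mast cell marker sum ran the other way from Hpgds between PBS and OVA/LPS/Vehicle. The 8 markers, none at 0 in any group, summed to 59.6 to 68.6 FPKM in PBS, 46.3 to 53.9 FPKM with vehicle and 42.8 to 48.5 FPKM with GGsTop. Eosinophil marker sums were low, at 7.1 to 8.79 FPKM in PBS, 2.77 to 12.9 FPKM with vehicle and 10.4 to 16.3 FPKM with GGsTop. Those with GGsTop were above PBS without overlap, and those with vehicle overlapped PBS. Epx, which encodes eosinophil peroxidase, was the only 1 of the 5 markers at 0 in all PBS libraries.

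Ptgds (ENSMUSG00000015090, chromosome 2), the lipocalin-type PGD2 synthase, was near the limit of detection, with 1 to 36 fragments in a library. Its mean over all libraries was 0.555 FPKM, and without OVA/LPS/GGsTop 2 it fell below the minimum of 0.5 FPKM and was not tested. PBS 1, 2 and 3 had 0.0403, 1.02 and 0.0976 FPKM, and the OVA/LPS/Vehicle libraries 12, 34, 56 and 78 had 0.743, 0.345, 0.951 and 0.399 FPKM. In OVA/LPS/GGsTop 1 to 4 it was 0.121, 1.50, 0.307 and 0.574 FPKM. PBS 2 and OVA/LPS/GGsTop 2 held the highest values, and all groups overlapped. These 2 libraries also had high cardiac muscle marker sums, 598 and 770.1 FPKM, while PBS 1 and 3, with sums of 7.87 and 24.5 FPKM, held the lowest Ptgds. OVA/LPS/GGsTop 4 had the highest cardiac sum, 811 FPKM, with Ptgds at 0.574 FPKM, and the part of cardiac tissue in these values was not tested. The log2 fold changes were 0.27 for OVA/LPS/Vehicle against PBS (95% interval -0.38 to 0.91), -0.04 for GGsTop against vehicle (-0.63 to 0.56) and 0.23 for OVA/LPS/GGsTop against PBS (-0.41 to 0.88). They were 0.58, -0.28 and 0.29 after the GC correction, none called. The added 1 FPKM makes such low values smaller, and on the recovered fragments, with voom, OVA/LPS/Vehicle against PBS was 1.59 (SE 0.98, adjusted p = 0.208, limma). The log2 ratio of Ptgds to Hpgds ranged from -2.55 in PBS 1 to 0.33 in OVA/LPS/GGsTop 2, and Hpgds exceeded Ptgds in 9 of the 11 libraries.

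Tbxas1 (ENSMUSG00000029925, chromosome 6), thromboxane A synthase, a platelet and macrophage enzyme, did not pass the test in any comparison. It was at 1.37, 1.09 and 1.99 FPKM in PBS 1, 2 and 3, at 1.92, 1.27, 0.945 and 2.26 FPKM in OVA/LPS/Vehicle 12, 34, 56 and 78, and at 2.02, 2.89, 1.87 and 1.73 FPKM in OVA/LPS/GGsTop 1 to 4. The groups overlapped. OVA/LPS/Vehicle against PBS gave a log2 fold change of 0.05 (95% interval -0.39 to 0.49), GGsTop against vehicle 0.28 (-0.12 to 0.69) and OVA/LPS/GGsTop against PBS 0.33 (-0.10 to 0.77). OVA/LPS/Vehicle 56 was lowest in Tbxas1 and also in the sum of the 9 macrophage markers, 142 FPKM, and OVA/LPS/GGsTop 2 was highest in both, with a sum of 285 FPKM. The macrophage sums were 147 to 211 FPKM in PBS, 142 to 269 FPKM in OVA/LPS/Vehicle and 202 to 285 FPKM in OVA/LPS/GGsTop, with no marker at 0. OVA/LPS/GGsTop 4 had the lowest Tbxas1 of its group, with a macrophage sum of 260.2 FPKM. The 5 platelet markers summed to 28.0 to 38.9 FPKM in PBS, 30.4 to 45.4 FPKM in OVA/LPS/Vehicle and 29.5 to 44.1 FPKM in OVA/LPS/GGsTop. The platelet sum was 43.7 FPKM in OVA/LPS/Vehicle 56 and 30.6 FPKM in OVA/LPS/GGsTop 2. The part of macrophages and platelets in these values was not tested.

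Prostacyclin and thromboxane A2 act against each other on vessels and platelets, and the log2 ratio of their synthases, Ptgis to Tbxas1, was highest in PBS. It was 4.81, 4.82 and 4.72 in PBS 1, 2 and 3, 3.12, 4.09, 4.09 and 3.11 in OVA/LPS/Vehicle 12, 34, 56 and 78, and 4.10, 3.42, 4.03 and 4.34 in OVA/LPS/GGsTop 1 to 4. Both disease groups lay below the PBS group and overlapped each other. The GC content of the transcripts, 56.6% for Ptgis and 47.9% for Tbxas1, differs, so that this ratio also moves with the GC slope. In OVA/LPS/Vehicle, library 12 and library 78, with the 2 highest Tbxas1 levels of the group, had the 2 lowest ratios.

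Hpgd (ENSMUSG00000031613, chromosome 8), the enzyme that inactivates PGE2, was the only gene of the 10 above 100 FPKM in any library. Its level was 361, 193 and 209 FPKM in PBS 1, 2 and 3, 191, 248, 268 and 174 FPKM in OVA/LPS/Vehicle 12, 34, 56 and 78, and 209.6, 135, 216 and 79.2 FPKM in OVA/LPS/GGsTop 1 to 4. The groups overlapped, with PBS 1 highest and OVA/LPS/GGsTop 4 lowest. OVA/LPS/Vehicle against PBS gave a log2 fold change of -0.17 (95% interval -0.92 to 0.58), 0.11 without PBS 1 and -0.67 after the GC correction (SE 0.34, adjusted p = 0.168, limma). With array weights it was -0.66 and called (adjusted p = 0.0415, limma). GGsTop against vehicle gave -0.54 (95% interval -1.23 to 0.15, adjusted p = 0.259, limma) and OVA/LPS/GGsTop against PBS -0.71 (95% interval -1.46 to 0.03, adjusted p = 0.262, limma). The GC correction made these -0.23 and -0.90, neither called, and with array weights OVA/LPS/GGsTop against PBS was -0.95 and called (adjusted p = 0.0315, limma). OVA/LPS/GGsTop 4 also had the lowest endothelial marker sum, 495 FPKM. The highest endothelial sum, 1773 FPKM, was in PBS 3, where Hpgd was 209 FPKM, and the part of endothelium in these values was not tested.

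**Figure D4:**
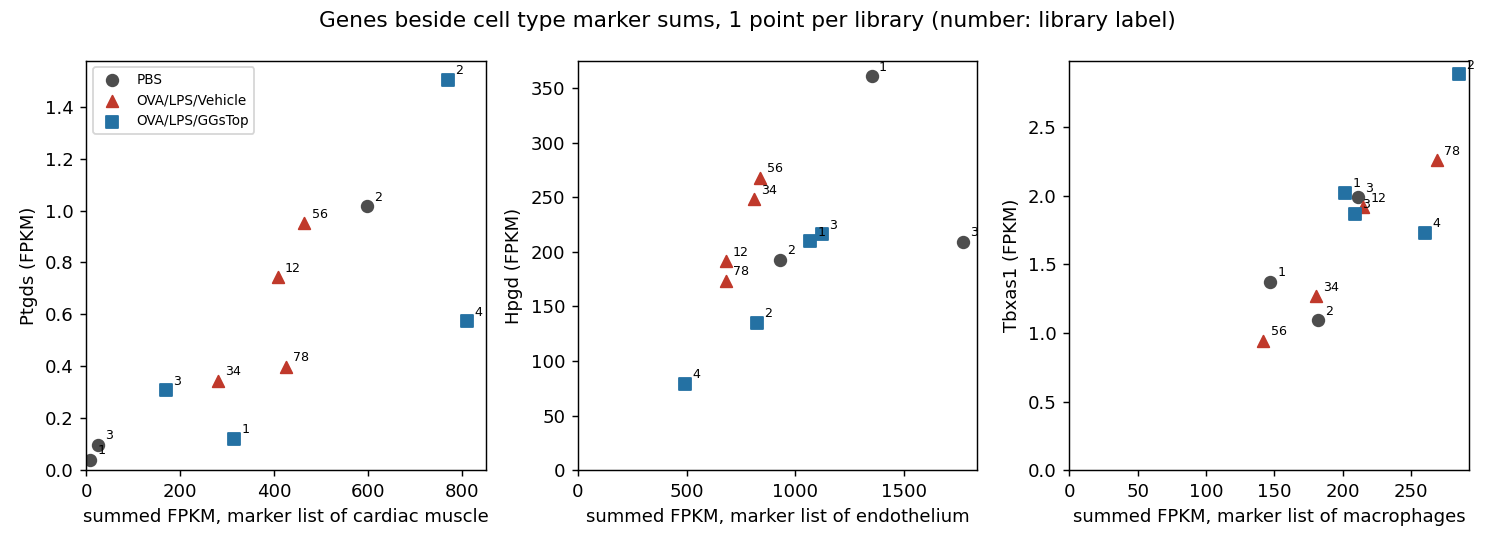
FPKM of Ptgds, Hpgd and Tbxas1 (y axes) against the summed FPKM of a cell type's markers (x axes), 1 point per library with its label number; colours and shapes are groups. Ptgds was lowest where the cardiac muscle sum was 7.87 and 24.5 FPKM, Hpgd lowest where the endothelial sum was 495 FPKM, and Tbxas1 lowest where the macrophage sum was 142 FPKM.

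The log2 ratio of Ptges to Hpgd set the microsomal PGE2 synthase beside the degrading enzyme. It ranged from -5.06 to -4.15 in PBS, from -5.31 to -4.69 with vehicle and from -5.41 to -3.03 with GGsTop. Transcript levels of Hpgd exceeded those of Ptges in every library. The cytosolic PGE2 synthase Ptges3, given below, is not part of this ratio. The groups overlapped, and OVA/LPS/GGsTop 4 stood highest.

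Ptger2 (ENSMUSG00000037759, chromosome 14) and Ptger4 (ENSMUSG00000039942, chromosome 15) encode the EP2 and EP4 receptors, which raise cAMP on binding PGE2. Ptger2 was at 1.65, 1.32 and 1.74 FPKM in PBS 1, 2 and 3, at 0.969, 0.926, 1.27 and 1.27 FPKM in OVA/LPS/Vehicle 12, 34, 56 and 78, and at 1.48, 1.88, 1.23 and 1.03 FPKM in OVA/LPS/GGsTop 1 to 4. OVA/LPS/Vehicle lay below PBS without overlap, and the OVA/LPS/GGsTop libraries overlapped both. OVA/LPS/Vehicle against PBS gave -0.29 in log2 fold change (SE 0.14, 95% interval -0.59 to 0.02) and did not pass the threshold (adjusted p = 0.119, limma). After the GC correction it was -0.55 and called (SE 0.16, adjusted p = 0.0376, limma), with a transcript GC content of 44.9%. It was also called when libraries were set to the same FPKM total (adjusted p = 0.0426, limma) and with array weights (adjusted p = 0.0284, limma). GGsTop against vehicle gave 0.18 (95% interval -0.10 to 0.46), and OVA/LPS/GGsTop against PBS -0.10 (95% interval -0.40 to 0.20).

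Ptger4 was at 1.17, 1.93 and 1.65 FPKM in PBS 1, 2 and 3, at 2.84, 1.77, 1.34 and 1.73 FPKM in OVA/LPS/Vehicle 12, 34, 56 and 78, and at 1.57, 1.69, 1.21 and 1.67 FPKM in OVA/LPS/GGsTop 1 to 4. OVA/LPS/Vehicle 12 stood highest, and all groups overlapped. The log2 fold changes were 0.16 (95% interval -0.21 to 0.54) for OVA/LPS/Vehicle against PBS, -0.18 (-0.53 to 0.16) for GGsTop against vehicle and -0.02 (-0.39 to 0.35) for OVA/LPS/GGsTop against PBS. The log2 ratio of Ptger4 to Ptger2 was -0.46 to 0.52 in PBS, 0.07 to 1.46 with vehicle and -0.15 to 0.65 with GGsTop.

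Of 37 other pathway genes found in the table, 26 reached the minimum level. Of these 26, 3 were called higher and 6 lower in OVA/LPS/Vehicle than in PBS, where 15.9% of all genes were higher and 22.1% lower. With GGsTop against vehicle 3 were called higher and none lower, where 6.9% and 1.81% of all genes were. In OVA/LPS/GGsTop against PBS, limma called none of the 26, where 2.88% of all genes were called. The median log2 fold change of the 26 genes was -0.02, 0.00 and 0.00 in these comparisons, where that of all genes tested was -0.01, 0.03 and 0.01. After the GC correction 3, none and 1 of the 26 were called, where 20.8%, 0.4% and 4.24% of all genes were.

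Arachidonate release had 8 genes tested, of which 2 were higher and 2 lower in OVA/LPS/Vehicle than in PBS, beside 15.9% and 22.1% of all genes. Pla2g4a encodes the cytosolic phospholipase A2 that frees arachidonic acid, and it measured 1.70 to 3.90 FPKM in PBS and 5.57 to 7.55 FPKM in OVA/LPS/Vehicle libraries. It was higher by 1.04 in log2 fold change (SE 0.23, adjusted p = 0.00757, limma), and by 0.73 after the GC correction, still called (adjusted p = 0.024, limma). Anxa1, annexin A1, which inhibits phospholipase A2, was also higher, at 108 to 152 against 76.0 to 96.0 FPKM, by 0.63 (SE 0.15, adjusted p = 0.0115, limma), but not after the GC correction (0.29, adjusted p = 0.16, limma). Pla2g6, the calcium-independent phospholipase A2, was lower in OVA/LPS/Vehicle, at -0.49 (adjusted p = 0.0258, limma), a call lost without PBS 3, OVA/LPS/Vehicle 34 or 56 (0.102, 0.0557 and 0.0632) and after the GC correction, at -0.13 (adjusted p = 0.396, limma). Pla2g1b, a secreted phospholipase A2, was lower, at -0.97 (adjusted p = 0.0452, limma), a call lost in 8 of the 11 fits that left out a library, all but those without OVA/LPS/Vehicle 34 or OVA/LPS/GGsTop 3 or 4, at adjusted p up to 0.152, and after the GC correction, at -0.73 (adjusted p = 0.158, limma). With GGsTop, Pla2g6 was higher than with vehicle, at 8.31 to 9.35 against 4.09 to 6.46 FPKM, by 0.60 (SE 0.14, adjusted p = 0.0299, limma). That call was lost without OVA/LPS/Vehicle 34, 56 or 78 or OVA/LPS/GGsTop 1, 2 or 3, at adjusted p (limma) of 0.0585 to 0.0954.

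Among 7 other prostaglandin synthases tested, Ptges3 was higher and Gstm2 lower in OVA/LPS/Vehicle than in PBS, a comparison in which 38.0% of all genes were called. Ptges3, the cytosolic PGE2 synthase and HSP90 cochaperone p23, measured 30.1 to 51.6 FPKM in PBS and 73.1 to 98.2 FPKM in OVA/LPS/Vehicle libraries, or 1.04 in log2 fold change (SE 0.18, adjusted p = 0.00397, limma), and 0.68 after the GC correction (adjusted p = 0.0116, limma). As deposited, the cytosolic PGE2 synthase Ptges3 thus went up and the inducible microsomal Ptges down. The Ptges call was lost after the GC correction (-0.36, adjusted p = 0.134, limma) and in 8 fits that left out a library. The transcripts had 43.2% GC for Ptges3 and 53.1% for Ptges, so that this contrast also moves with the GC slope. Ptges3 in OVA/LPS/GGsTop was above PBS by 0.72, not called (adjusted p = 0.0556, limma), and called after the GC correction (0.58, adjusted p = 0.0348, limma) or without PBS 2 (adjusted p = 0.0274, limma). Gstm2, a glutathione transferase, was lower in OVA/LPS/Vehicle, at 77.0 to 91.3 against 121 to 143 FPKM, or -0.59 (SE 0.11, adjusted p = 0.00451, limma), and at -0.52 after the GC correction, still called (adjusted p = 0.0151, limma). With GGsTop it was 102 to 116 FPKM, higher than with vehicle by 0.39 (SE 0.10, adjusted p = 0.0408, limma). That call was lost when any 1 of the 8 libraries of these groups was left out, at adjusted p (limma) of 0.0588 to 0.114. Cbr2, a carbonyl reductase abundant in airway epithelium, was higher with GGsTop, at 3158 to 3524 against 1443 to 2065 FPKM, by 0.86 (SE 0.19, adjusted p = 0.0261, limma), a call lost without OVA/LPS/Vehicle 34, 56 or 78 or OVA/LPS/GGsTop 1, 2 or 3, at adjusted p (limma) of 0.054 to 0.081. None of the 3 calls with GGsTop passed after the GC correction, at adjusted p (limma) of 0.132 for Pla2g6, 0.147 for Gstm2 and 0.112 for Cbr2.

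The list of other receptors, which also holds Ptgfrn, not itself a prostanoid receptor, had 5 genes tested. Of these, 2 were lower in OVA/LPS/Vehicle than in PBS, where 22.1% of all genes were lower. None was called by limma with GGsTop against vehicle or in OVA/LPS/GGsTop against PBS, where 8.71% and 2.88% of all genes were called. The receptor genes Ptger1, Ptgdr and Ptgdr2 were below the minimum level and were not tested. Tbxa2r, the thromboxane A2 receptor, which contracts smooth muscle and activates platelets, measured 7.78 to 11.2 FPKM in PBS, 4.71 to 5.51 FPKM with vehicle and 4.79 to 7.30 FPKM with GGsTop. OVA/LPS/Vehicle was lower than PBS, at -0.72 (SE 0.14, adjusted p = 0.00546, limma), and at -0.36 after the GC correction, which did not pass (adjusted p = 0.0572, limma). OVA/LPS/GGsTop was below PBS without overlap, at -0.52 (adjusted p = 0.0695, limma), and called without OVA/LPS/GGsTop 3 (adjusted p = 0.0364, limma). Ptgfrn, a membrane protein that inhibits ligand binding of the PGF2α receptor, was lower in OVA/LPS/Vehicle, at -0.72 (adjusted p = 0.0134, limma), and not without PBS 3 (adjusted p = 0.0564, limma) or after the GC correction (adjusted p = 0.0776, limma). Ptgir, the prostacyclin receptor, named after its values were seen because it receives the product of Ptgis, was at 1.90 to 3.12 FPKM in PBS, 1.22 to 3.17 FPKM with vehicle and 1.91 to 2.81 FPKM with GGsTop. Its log2 fold changes were -0.11 (95% interval -0.57 to 0.36) and, with GGsTop, 0.05 (95% interval -0.39 to 0.48).

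Among 6 genes of prostaglandin transport and reduction, Slco2a1 was called, lower in OVA/LPS/Vehicle than in PBS, as 22.1% of all genes were. It encodes the prostaglandin transporter that takes PGE2 into cells, much of it in lung endothelium, and it measured 34.1 to 64.8 FPKM in PBS and 23.6 to 27.9 FPKM in OVA/LPS/Vehicle libraries, or -0.90 in log2 fold change (SE 0.30, adjusted p = 0.037, limma). The call was lost without PBS 1, PBS 3 or any 1 of the 4 OVA/LPS/Vehicle libraries, at adjusted p (limma) of 0.0592 to 0.162, and after the GC correction (-0.79, adjusted p = 0.0964, limma). In OVA/LPS/GGsTop it spread from 18.7 to 49.8 FPKM.

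**Figure D5:**
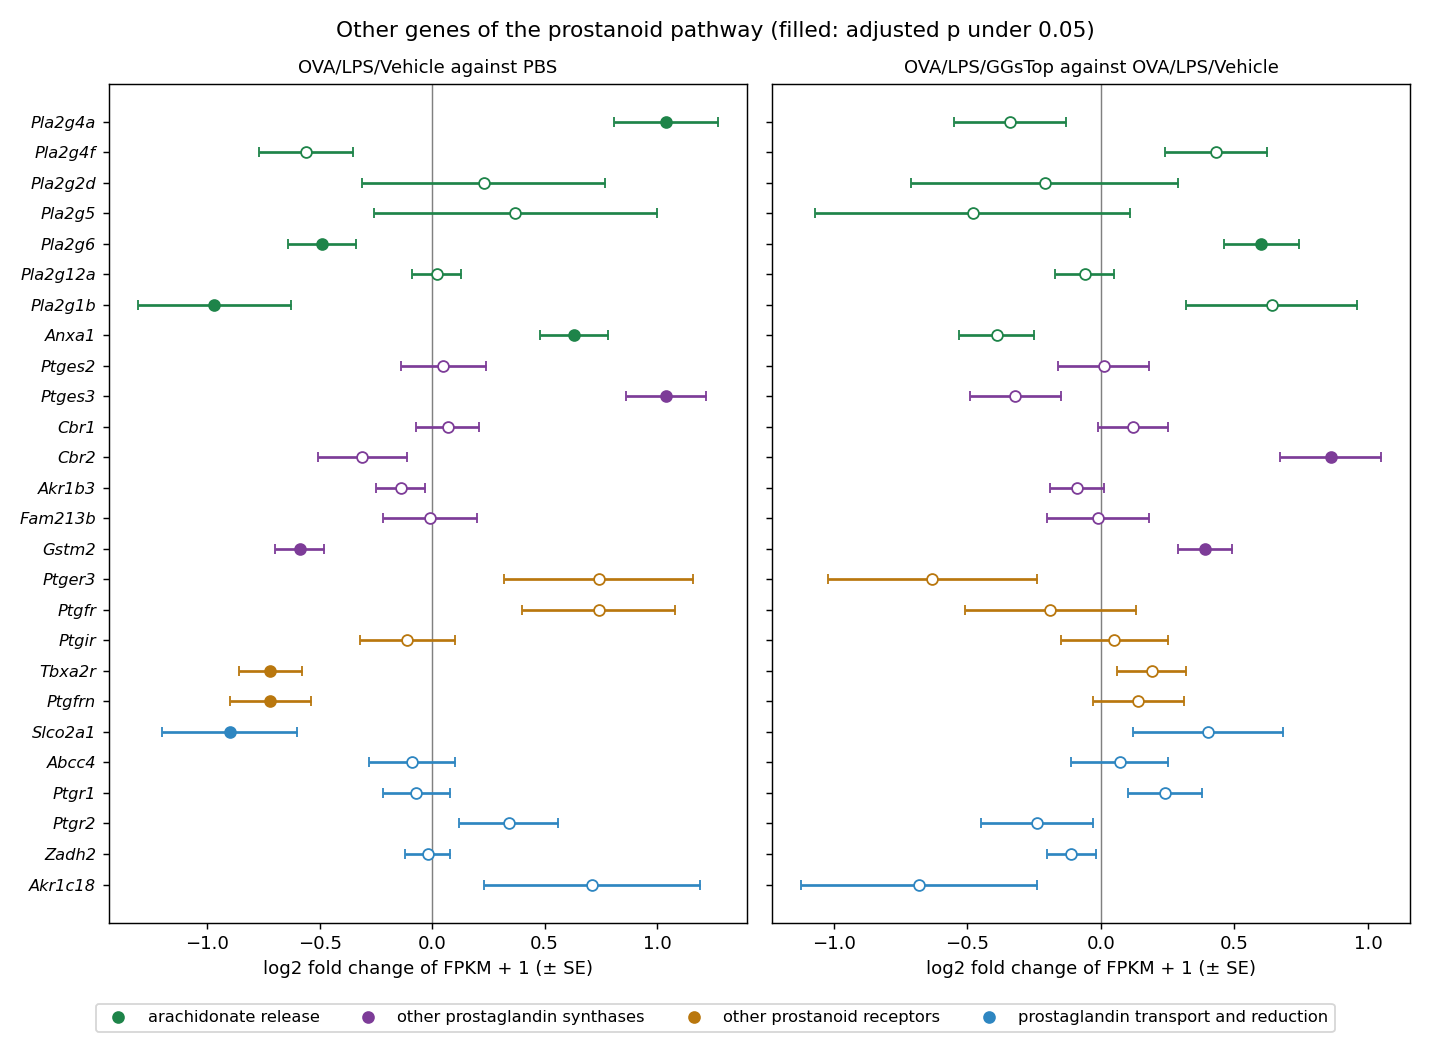
Log2 fold changes of FPKM + 1 (x axis, ± SE) of the 26 other pathway genes tested in 2 comparisons, coloured by list and filled where the adjusted p was under 0.05. The left panel has 9 filled points, 3 to the right of 0 (Pla2g4a, Anxa1, Ptges3), and the right panel has 3, all to the right of 0 (Pla2g6, Cbr2, Gstm2).

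Among all genes tested, those most like a called gene over the 11 libraries, by Pearson's r of log2 values, are given as a description. The libraries share the group differences and the GC slope, so that these likenesses rest on the same 3 groups. Ptgs1 was most like Snx33 (0.981), Grin2d (0.977) and Arl10 (0.977). Ptgs2 was most like Zfp72 (0.956), Pin4 (0.944) and Slc35a5 (0.925). For Ptges they were Pla1a (0.925), Il6st (0.912) and Lif (0.908), for Ptgis Smurf1 (0.982), Arhgef17 (0.979) and Ulk1 (0.976), and for Hpgds Arfgef3 (0.942), Ccdc34 (0.911) and Casp4 (0.91).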

How the data were processed

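Poly(A) RNA of airway tissue was sequenced on 11 libraries. Per the submitters' processing notes, cutadapt 1.15, HISAT2 2.0.5, HTSeq 0.9.1 and the build mm39 were used, while the annotation release is not given in the sources used here. The authors deposited FPKM, 1 column per library, with no further scaling between libraries. Gene names, exon lengths and GC content (longest transcript) came from GENCODE M21 on GRCm38, which named 21846 genes. FPKM were whole multiples of 1 fragment (tolerance 0.02) in every library for 97.6% of 18244 genes, which gave the fragments behind a value. The strand setting of the counting was not given, so that reads of overlapping or antisense genes could not be told apart.

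The 10 genes, the pathway and marker lists and the rule for naming genes were chosen with earlier results of these data known. All 10 genes are named, with each other pathway gene called in at least 1 comparison. Pearson's r was printed for genes called. Genes averaging 0.5 FPKM or more were fitted as log2(FPKM + 1) over all 11 libraries with limma 3.58.1 (R 4.3.3) and a mean-variance trend; p-values were two-sided, adjusted by Benjamini-Hochberg over 14004 genes and called under 0.05. Fold changes on this scale understate those of low genes. The GC correction subtracted a natural spline with 5 degrees of freedom on GC content in each library. The study used a count model, which FPKM do not allow, and voom on recovered fragments was an alternative beside other pseudocounts, minima, scalings, weights, group choices and each library left out. PBS and OVA/LPS/GGsTop share the numbers 1 to 3, whose deviations correlated at 0.158, 0.624 and 0.401, each over 0.1. An alternative fit therefore took them as paired, with the number as a block, from the data alone, not from the labels. PBS 1 correlated more with OVA/LPS/GGsTop 3 (0.419). Except where a block is named, the values given are from fits without it. The fit was tested on simulated data, where a log2 change of 1 in 200 genes was called for 183, with 8 false calls. The simulation drew independent noise for each gene with no GC slope or tissue difference, so that it cannot speak to calls that move with these. Python 3.11.15 was used for tables (pandas 2.3.3) and plots (matplotlib 3.10.9).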

Additional observations from a re-analysis of the deposited data

Results flagged for a closer look

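Among 40 gene and group values in groups of 4 libraries, 3 had a library far from the others by Dixon's ratio of gap to range at its 95% critical value, and chance flags about 1 in 20. Ptges in OVA/LPS/Vehicle 34, at 7.69 FPKM, was above the other 3 libraries of its group (ratio 0.848). Gstm2 in OVA/LPS/GGsTop 2, at 102 FPKM, was below the other 3 (ratio 0.894). Pla2g6 in OVA/LPS/GGsTop 1, at 9.35 FPKM, was above the other 3 (ratio 0.844).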

How the results depend on the processing

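Ptgis was lower in OVA/LPS/Vehicle than in PBS and called under every alternative run for that comparison, Ptgs2 was called under all but the GC correction, and Hpgds under all but that correction and the fit without PBS 1. The number of the 10 genes called in OVA/LPS/Vehicle against PBS (5) was 7 with array weights, 6 at the same FPKM total, 4 with only those groups in the fit, 3 with no minimum level, 3 with the libraries set to the same median and 2 after the GC correction, 5 in the other 6 alternatives, and 2 to 5 when 1 library was left out. With GGsTop against vehicle (1) it was 2 at the same FPKM total, 0 after the GC correction, 3 with array weights, 3 with only those groups in the fit, and 0 to 3 when 1 library was left out. In OVA/LPS/GGsTop against PBS (0) it was 2 with array weights. Over all genes, OVA/LPS/Vehicle against PBS (5327) gave 7916 calls with array weights, 2910 after the GC correction, and 3057 to 6439 when 1 library was left out. GGsTop against vehicle (1220) gave 2181 at the same FPKM total, 698 at the same median, 56 after the GC correction, 5214 with array weights, 3519 with only those groups, and 24 to 3593 when 1 library was left out. OVA/LPS/GGsTop against PBS (403) gave 208 with no minimum, 2557 with array weights, 39 with only those groups, and 28 to 1588 when 1 library was left out. The lowest and highest counts came without PBS 3 and PBS 2, without OVA/LPS/GGsTop 1 and PBS 3, and without PBS 1 and PBS 2.

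With the replicate number as a block, OVA/LPS/GGsTop against PBS gave 122 calls, and the same 6 libraries without the block, added after seeing the data, gave 23. The block together with the GC correction gave 403, and the block changed no call of the 10 genes. PBS 1 correlated more with OVA/LPS/GGsTop 3 (0.419) than with its own number (0.158), so that the pairing is doubtful there.

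Scaling to the same FPKM total moved the median log2 fold change of all genes to -0.15 in OVA/LPS/Vehicle against PBS and to 0.11 with GGsTop against vehicle. The calls were then 1232 higher and 4570 lower (2231 and 3096 as deposited), 2026 higher and 155 lower (966 and 254) and, in OVA/LPS/GGsTop against PBS, 250 higher and 243 lower (288 and 115). At the same median, GGsTop against vehicle gave 344 higher and 354 lower.

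Changes of direction were seen only in differences that were not called, and their cause was not tested. In OVA/LPS/Vehicle against PBS these were Tbxas1 at the same FPKM total (-0.05), and after the GC correction Tbxas1 (-0.03) and Ptger4 (-0.17). With GGsTop against vehicle they were Ptges at the same median (-0.0011), after the GC correction (-0.09) and with array weights (-0.05), and after the GC correction Hpgds (0.04) and Ptger4 (0.02). In OVA/LPS/GGsTop against PBS they were Ptgs1 at the same FPKM total (-0.05) and the same median (-0.02) and Ptger4 with array weights (0.17). Leaving out 1 library gave -0.07 to 0.19 for Tbxas1 and -0.34 to 0.11 for Hpgd in OVA/LPS/Vehicle against PBS, -0.09 to 0.19 for Ptges and -0.12 to 0.12 for Ptgds with GGsTop, and -0.08 to 0.13 for Ptgs1 and -0.14 to 0.08 for Ptger4 in OVA/LPS/GGsTop against PBS. A pseudocount of 1 changed the log2 ratio of Ptgs2 to Ptgs1 in OVA/LPS/GGsTop to -1.34 and that of Ptgis to Tbxas1 to 4.14 in PBS, 3.01 in OVA/LPS/Vehicle and 3.51 in OVA/LPS/GGsTop. Depth limited Ptgds most, with 1 to 36 fragments in a library.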
